A study of Bos taurus with 3 samples.

Results

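The let-7 miRNAs and their relative miR-98 were measured by small RNA sequencing in RNA from purified large dense-core vesicles of bovine chromaffin cells. Members were taken by name: every annotated miRNA whose name starts with let-7, plus miR-98, with each arm and each hairpin copy kept. This gave 14 of the 919 rows of the deposited count table, which belong to 10 of 793 mature miRNAs and to 12 hairpins. All 10 had at least 10 counts in every library, so none was lost to the filter of the test, which 367 miRNAs passed.

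Chromaffin cells release adrenaline and noradrenaline from the adrenal medulla, and the large dense-core vesicles are where they store these hormones together with peptides. The adrenal glands came from slaughtered cows, and the labels name no treatment, genotype, age or number of animals for any library. The 3 libraries comprised a pair labelled as technical replicates, here technical libraries 1 and 2, and 1 labelled as a biological replicate, here the biological library. The labels do not say which step the technical pair repeats, nor whether the biological library comes from other animals. The pair was averaged as 1 preparation, and the biological library was taken as another on its label alone. On that basis means and SDs were taken over n = 2 preparations.

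let-7 was among the earliest miRNAs found, as a timing gene in worm larvae, and in mammals it is known for its broad expression in differentiated cells and for repressing growth-promoting targets such as RAS and HMGA2. The members are encoded at many sites but carry the same seed, the stretch near the 5′ end that sets which targets are bound, and miR-98 shares it. The RNA-binding protein LIN28 is known to block the maturation of most let-7 precursors. Members differ from each other at few positions outside the seed, so a read with an error or a trimmed end can be assigned to a relative, and the split of reads between members is uncertain to that extent.

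Each library held between 5546771 and 6708654 miRNA counts once each mature miRNA was counted on a single hairpin. A count of 0 would have allowed up to 3 counts, or 0.447 to 0.541 CPM (the count divided by the library total and rescaled to a common one), far below every member. The endocrine markers miR-375 and miR-7 held 44.1% and 42.8% of all counts in technical libraries 1 and 2 and 47.3% in the biological library. They went different ways. miR-375 had 381396 and 358079 CPM in the technical pair and 416586 CPM in the biological library, and miR-7 had 59224 and 70296 CPM against 56414 CPM. Neither passed the test between preparations given below (edgeR adjusted p = 0.23 and 0.95). No whole-cell library was analysed here, so the values describe the vesicle RNA and no enrichment over the cell. Because these are bulk samples, more vesicles or cells of a kind cannot be told apart from more of a miRNA in each.

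The 12 hairpins lay mostly beside each other or beside a few recurrent partners. In the RefSeq gene table (assembly ARS-UCD2.0, used here for names and neighbours only) all 12 were found, and 11 had another miRNA gene within 50 kb. let-7a-1, let-7f-1 and let-7d formed a group, as did let-7a-3 with let-7b, and miR-98 with let-7f-2 inside the span of HUWE1, a ubiquitin ligase gene. The others with known partners were let-7a-2 beside miR-100 and miR-125b-1, let-7c beside miR-99a and miR-125b-2, and let-7e beside miR-99b and miR-125a. let-7g lay within the span of WDR82 and near miR-135a-1, and let-7i had no miRNA gene within that distance.

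Reads of let-7a and let-7f could not be assigned to a hairpin. let-7a-5p had a row on each of 3 hairpins, with 18205 to 18222 counts in technical library 1, 21409 to 21431 in technical library 2 and 27173 to 27192 in the biological library. The 3 rows of a library thus differed by at most 22 counts. let-7f had rows on let-7f-1 and let-7f-2 that differed by 5, 0 and 14 counts in the same order of libraries. Near-equal rows arise when the same reads are entered at every copy, so only the fullest row of each mature miRNA was used and the copies were not added. The remaining 7 main-arm members come from 1 hairpin each and need no such choice.

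With 1 row per miRNA, let-7i (MIMAT0003851) was the most abundant member, followed by let-7g and let-7f. If the rows of a miRNA are added instead, let-7f (28.2% of the family counts) and let-7a-5p (24.4%) come before let-7i (22.6%). let-7i had 9003 and 10162 CPM in technical libraries 1 and 2 and 10965 CPM in the biological library, with a mean of 10274 ± 978 CPM (SD, n = 2). It ranked 21, 18 and 16 among all miRNAs of the 3 libraries. The biological library was the highest, but the technical libraries also lay apart, around a mean of 9582 CPM.

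let-7g had 6214 and 6707 CPM in the technical pair and 6495 CPM in the biological library, between the pair. let-7f had 5801 and 6100 CPM against 6846 CPM, above the pair. let-7g therefore exceeded let-7f in both technical libraries and was below it in the biological one, and the means of 6478 ± 24.4 and 6398 ± 633 CPM (SD, n = 2) give no order between them. The small SD of let-7g understates its spread, since its technical libraries lay further apart than the preparations.

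let-7a-5p followed with 3285, 3428 and 4053 CPM in technical libraries 1 and 2 and the biological library, with the biological library above the pair. Below it lay a group of similar level formed by let-7c, let-7b and let-7e, with means of 1642 ± 16.6, 1299 ± 27.9 and 1214 ± 143 CPM (SD, n = 2). let-7c had 1684, 1624 and 1630 CPM, and the biological library fell within the pair. let-7b had 1292 and 1345 CPM in the pair and 1279 CPM in the biological library, just below both, as were 59.1% of the 367 miRNAs tested. let-7e had 1074 and 1152 CPM in the pair and 1315 CPM in the biological library, above both. The ratio of let-7e to let-7b counts was 0.831 and 0.857 in the pair and 1.03 in the biological library, where its exact 95% counting interval of 0.998 to 1.06 includes equality.

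miR-98 and let-7d were the scarcest main-arm members. miR-98 (MIMAT0003809) had 194 and 226 CPM in technical libraries 1 and 2 and 312 CPM in the biological library, and let-7d had 246, 257 and 265 CPM. Their order also changed: miR-98 was at 0.789 and 0.880 of the let-7d count in the pair and at 1.18 (exact 95% counting interval 1.10 to 1.25) in the biological library. miR-98 moved from rank 136 and 130 to rank 115, while let-7d moved from 124 and 123 to 117.

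let-7a-3p, the opposite arm of the let-7a hairpins and the sole such arm that the table names for the family, stood far below the rest. It had 122, 170 and 154 counts (22.0, 27.2 and 23.0 CPM) in technical libraries 1 and 2 and the biological library. let-7a-5p exceeded it by 149 times and 126 times in the pair and by 177 times in the biological library, with a mean ratio of 157 ± 27.5 (SD, n = 2). The exact 95% counting intervals ended at 180.0 and 147 in the pair and ran from 151 to 208 in the biological library, which thus overlapped technical library 1 but not technical library 2. let-7a-3p had rows on let-7a-1 and let-7a-3 but none on let-7a-2, whereas let-7a-5p was counted on all 3, so the ratio compares pools of hairpins that are not the same.

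**Figure D1:**
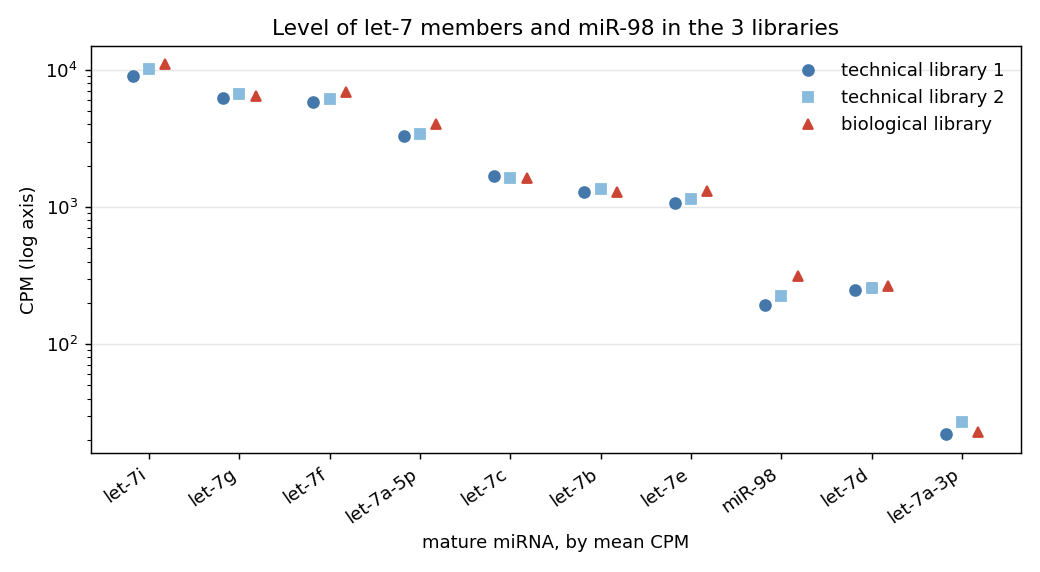
CPM of each member on a log axis, with 1 point for each of the 3 libraries. Levels span from 10965 CPM for let-7i to 22.0 CPM for let-7a-3p, and the biological library lies above both technical libraries for let-7i, let-7f, let-7a-5p, let-7e, miR-98 and let-7d.

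The family together held 2.88% and 3.103% of all miRNA counts in technical libraries 1 and 2 and 3.32% in the biological library. Exact 95% intervals were 2.87 to 2.90%, 3.09 to 3.12% and 3.30 to 3.33%, so every pair of libraries differed by more than counting error, the technical pair included. let-7i, let-7g and let-7f made up 73.4% of the family counts on average, and with let-7a-5p 85.1%.

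The make-up of the family differed between the libraries, and these shares do not depend on how libraries are scaled. let-7g held 21.57% and 21.62% of the family counts in the pair and 19.57% in the biological library. let-7b held 4.49% and 4.33% against 3.85%, and let-7c 5.84% and 5.23% against 4.91%. These 3 members were lower in the biological library than in either technical library, as were let-7d (0.854% and 0.827% against 0.799%) and let-7a-3p (0.0763% and 0.0876% against 0.0692%).

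Higher shares in the biological library were held by the other 5 members. miR-98 had the largest relative difference, from 0.674% (exact 95% interval 0.634 to 0.715%) and 0.728% (0.691 to 0.767%) to 0.940% (0.900 to 0.981%), or 1.34 times the mean of the pair. let-7a-5p went from 11.4% and 11.0% to 12.2%, let-7e from 3.73% and 3.71% to 3.96%, and let-7f from 20.1% and 19.7% to 20.6%. let-7i, at 31.2% and 32.8% against 33.0%, was the 1 member whose technical libraries were further apart (1.51 percentage points) than the biological library was from their mean (1.05 points). For let-7c and let-7a-3p the margin was slight, with gaps of 0.608 and 0.0113 points within the pair beside differences of -0.626 and -0.0128 points between the preparations. Shares within a family add up to a fixed total, so a higher share of some members requires a lower share of others, and with 1 library of the second preparation these differences were not tested. An exact permutation test of 2 libraries against 1 cannot go below p = 0.333.

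**Figure D2:**
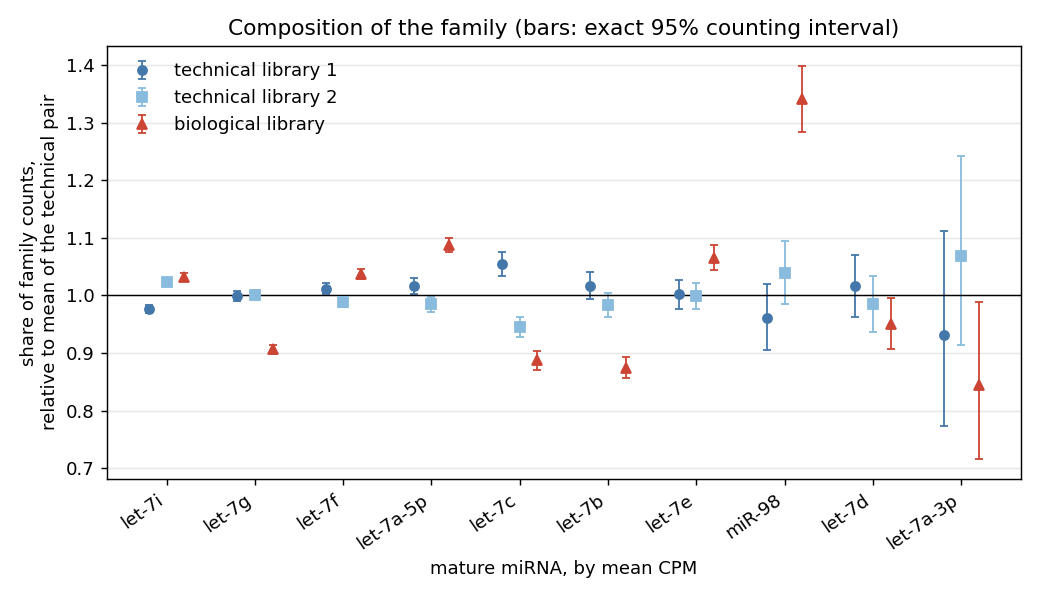
Share of the family counts held by each member, divided by the mean share of the technical pair, in each of the 3 libraries (bars are exact 95% counting intervals). miR-98 stands at 1.34 in the biological library, and let-7g, let-7c and let-7b stand below 1 there.

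Ratios between members restate these shares, also without any scaling, and add no separate support. let-7a-5p counts were 2.54 and 2.55 times those of let-7b in the technical pair and 3.17 times in the biological library. let-7i was at 1.45 and 1.51 times let-7g in the pair and 1.69 times in the biological library. let-7a-5p and let-7f kept a closer proportion, at 0.566 and 0.562 in the pair and 0.592 in the biological library.

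The biological library was then compared with the technical pair over all 367 miRNAs (edgeR quasi-likelihood test on counts with TMM scaling, which sets libraries on a common scale from the bulk of miRNAs). Of the 10 members, 6 were higher there at a Benjamini-Hochberg adjusted p below 0.05 and none was lower. Over all miRNAs tested, 37.9% passed, with 17.7% of the 367 higher and 20.2% lower. None of the members was lower at an unadjusted p below 0.05 either, in edgeR or in DESeq2. At an adjusted p below 0.05, DESeq2 called 5 members higher (11.4% of all miRNAs). The median log2 fold change was 0.32 over the members and 0.01 over all tested.

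miR-98 had the largest difference among the members, a log2 fold change of 0.75 ± 0.11 (SE, edgeR adjusted p = 1.1e-10, 95% interval 0.55 to 0.96). In CPM its biological library was above both technical libraries, as for 24.5% of the 367 miRNAs. It passed in all 8 fits run on mature miRNAs, with adjusted p-values up to 0.024. These fits use the same 3 libraries, so they are not independent. let-7a-5p rose by 0.45 ± 0.10, let-7e by 0.42 ± 0.09 and let-7f by 0.38 ± 0.10 on the log2 scale (SE, edgeR adjusted p = 2.6e-05, 5.3e-05 and 0.0010). Each of these passed in 7 of the 8 fits, all but that with library totals in place of TMM. let-7i rose by 0.38 ± 0.11 (edgeR adjusted p = 0.0027) and passed in 6 fits. let-7d rose by 0.26 ± 0.11 with an edgeR adjusted p of 0.042, and passed in that fit alone of the 8, with adjusted p-values of up to 0.61 in the others. The other fits on mature miRNAs, apart from that with library totals, called 4 or 5 members, all higher: 5 with DESeq2 size factors (14.2% of all miRNAs higher), with DESeq2's own test (11.4%), without a count filter (11.0%), with rows of a miRNA summed (15.9%) and with miR-375 left out (14.2%), and 4 of 9 among miRNAs of at least 100 CPM (15.6%). With each of the 14 rows fitted as its own feature, 9 rows passed (17.2%), and these belong to the 6 members called with TMM, let-7d included.

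The remaining members did not pass. let-7g had a log2 fold change of 0.19 (95% interval -0.01 to 0.39), let-7c of 0.16 (-0.03 to 0.35) and let-7b of 0.14 (-0.05 to 0.32), with edgeR adjusted p-values of 0.15, 0.18 and 0.26. let-7a-3p, with the fewest counts, had 0.08 (-0.29 to 0.44). The intervals of let-7g and let-7a-3p reach the estimates of let-7i and let-7f and those of let-7c and let-7b do not, with all of them resting on the technical spread. Whether the members that passed differ from those that did not was not tested.

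The size and the number of these calls differed between scales. With library totals the fit also estimated 4.30 prior degrees of freedom, against an infinite number in the TMM fit above. These set the weight of the spread pooled over all miRNAs. How much the scale and this weight each moved the number of calls was not tested. Relative to library totals, TMM over the 367 miRNAs raised the biological library by 0.18 on the log2 scale. TMM over miRNAs of at least 100 CPM gave smaller log2 fold changes. These were 0.60 for miR-98, 0.31 for let-7a-5p, 0.27 for let-7e, 0.24 for let-7f and 0.23 for let-7i. With library totals only miR-98 passed (log2 fold change 0.57, edgeR adjusted p = 0.024), where 6.54% of all miRNAs were higher. The split of all calls was 65 higher and 74 lower with TMM and 24 higher and 86 lower with library totals. On that scale let-7c, let-7b and let-7a-3p turned negative, at -0.021, -0.044 and -0.11, while let-7a-5p (0.27), let-7e (0.24), let-7f (0.20) and let-7i (0.19) kept their sign but missed the threshold. The median of the members was 0.14 against -0.17 over all miRNAs. The members' median thus stood 0.30 above the median of all miRNAs, as it did with TMM. A change of scale moves all miRNAs by nearly the same amount, so this likeness was fixed beforehand. In plain CPM the biological library was above both technical libraries for 6 of 10 members, beside 24.5% of the 367 miRNAs, and with TMM scaling for 9 of 10, beside 44.1%.

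**Figure D3:**
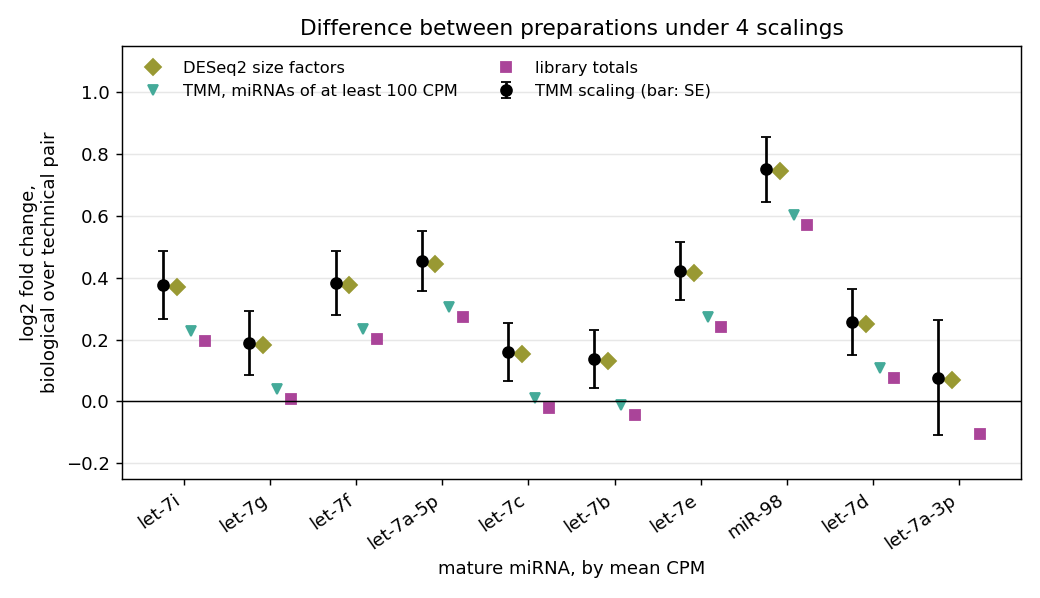
Log2 fold change of each member, biological library over technical pair, under 4 scalings (bars are SE of the TMM fit; let-7a-3p was too scarce for the fit of miRNAs of at least 100 CPM). miR-98 is highest under each, from 0.75 with TMM to 0.57 with library totals, and let-7c, let-7b and let-7a-3p lie at or below 0 with library totals.

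The technical pair gave close values for most members. After TMM scaling the absolute log2 ratio between technical replicates had a median of 0.06 over the members, against 0.12 over the 367 tested and 0.09 over the 167 that averaged at least 100 CPM. It was largest for let-7a-3p (0.26) and miR-98 (0.17). The spread in the edgeR test came from this pair alone, pooled over all miRNAs, and the single biological library is taken to vary as much. The size of the p-values differed between fits, and miR-98 had an adjusted p of 0.0053 in edgeR with DESeq2 size factors, where 5.04 prior degrees of freedom were estimated in place of an infinite number. The p-values hence set these libraries against each other, say nothing of animals, and serve as a threshold only.

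Among the chosen partners outside the family that are encoded beside let-7 hairpins, none passed the test as higher. The partners were miR-99a, miR-99b and miR-100, relatives of miR-10, and miR-125a and miR-125b, the vertebrate counterparts of worm lin-4. Of their 6 mature forms 2 were lower and none higher (edgeR adjusted p below 0.05, beside 20.2% lower and 17.7% higher of all tested), with a median log2 fold change of -0.01. At an unadjusted p below 0.05, 1 was higher and 2 were lower in edgeR and in DESeq2 alike.

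At the let-7e group, let-7e rose while its partners did not pass. miR-99b had 4680 and 4669 CPM in the technical pair and 3817 CPM in the biological library, a log2 fold change of -0.11 ± 0.10 (SE, edgeR adjusted p = 0.43). miR-99b passed as lower with library totals, at -0.29 (edgeR adjusted p = 0.044), and among miRNAs of at least 100 CPM, at -0.26 (edgeR adjusted p = 0.026). miR-125a had 5447 and 5406 CPM against 5146 CPM, with 0.10 ± 0.10 (SE), which turned to -0.076 and -0.043 in the same 2 fits. Free of any scaling, miR-99b was at 4.36 and 4.05 times let-7e in the pair and 2.90 times in the biological library, and miR-125a at 5.07 and 4.69 times against 3.91 times. The biological library was thus lower than both technical libraries in either ratio.

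At the let-7c group the main arms kept their proportion more closely. miR-99a-5p had 11585 and 10860 CPM in the pair and 11726 CPM in the biological library, and was at 6.88 and 6.69 times let-7c against 7.19 times. Its log2 fold change of 0.24 ± 0.11 (SE) did not pass (edgeR adjusted p = 0.074). The opposite arm, miR-99a-3p, had 49.0 and 44.3 CPM against 23.6 CPM and fell by 0.80 ± 0.17 on the log2 scale (edgeR adjusted p = 3.2e-05). miR-125b, whose reads come from hairpins beside both let-7c and let-7a-2, had 38029, 35783 and 34561 CPM and a log2 fold change of 0.09 ± 0.14 (SE), which became -0.095 with library totals and -0.062 among miRNAs of at least 100 CPM.

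At the let-7a-2 group, miR-100 had 1443 and 1533 CPM in the pair and 1063 CPM in the biological library, and fell by 0.30 ± 0.10 on the log2 scale (edgeR adjusted p = 0.0063). let-7a-5p rose, but its reads are shared with let-7a-1 and let-7a-3. The same holds for let-7f and its 2 hairpins, of which let-7f-2 lies beside miR-98. let-7f counts were 29.9 and 27.0 times those of miR-98 in the pair and 22.0 times in the biological library.

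**Figure D4:**
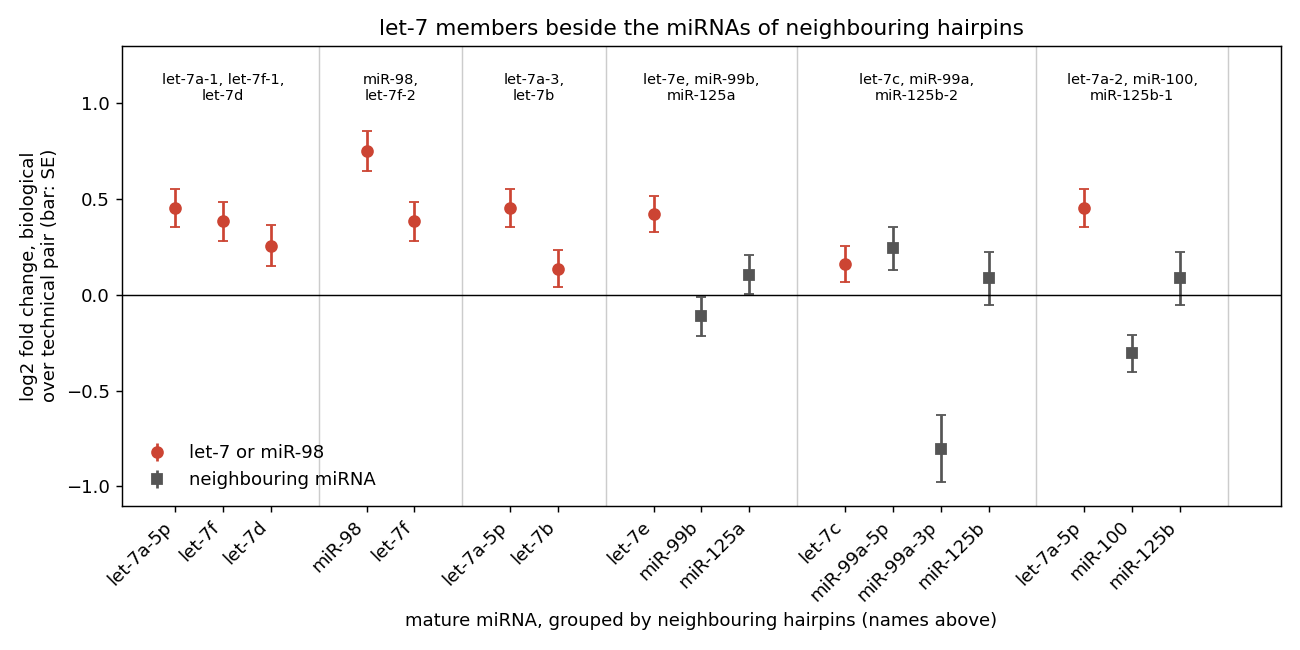
Log2 fold change (biological library over technical pair, TMM scaling, bars are SE) of let-7 members and miR-98 beside the miRNAs of neighbouring hairpins. let-7a-5p, let-7f and miR-125b appear under each hairpin group they can come from, and miR-100 and miR-99a-3p lie below 0 at -0.30 and -0.80.

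Markers of other cell types also differed between the preparations. Calls among them used edgeR with TMM, by which 20.2% of all miRNAs tested were lower and 17.7% higher. The marker calls were not repeated with library totals. The smooth muscle and fibroblast miRNAs held 1.98% and 2.19% of all counts in technical libraries 1 and 2 and 1.22% in the biological library, with 6 of 7 lower. miR-199a-3p and miR-199c carried identical counts there, so they are not independent and their reads enter these shares 2 times. Both arms of the endothelial miR-126 were lower (0.182% and 0.189% against 0.113% of the counts), as were 2 of 5 tested leukocyte miRNAs (0.0281% and 0.0280% against 0.0123%). The neuronal list, by contrast, went from 0.812% and 0.860% to 0.962%, with 5 of 10 higher and none lower at an adjusted or unadjusted edgeR p below 0.05. The counts of miR-124a equalled those of miR-124b there, and those of miR-129-5p equalled miR-129, so these too are added 2 times. Against the direction of the list, miR-124a and miR-124b each had 13 and 16 counts in the pair and 10 in the biological library. Their log2 fold change of -0.53 did not pass (edgeR adjusted p = 0.46) and is limited by these few counts. In the erythrocyte list (0.0898% and 0.0837% against 0.110%) 1 of 2 tested was higher. This was miR-486, with 873 and 816 CPM in the pair and 1080 CPM in the biological library. miR-451 went the other way without passing, with 23.6 and 20.2 CPM against 16.8 CPM. miR-144, not tested, had 5 and 6 counts against 4. No marker of these lists was at 0 in all libraries, and their part in the let-7 differences was not tested.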

How the data were processed

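Small RNA libraries were made from total RNA of purified vesicles with the NEBNext small RNA set, per the labels' protocols. The deposited table holds raw read counts and CPM by the authors for 919 rows, and a second deposited table holds log2 values for 459 rows, the 14 member rows included. The submitters' processing notes name genome build UMD3.1 and edgeR. How reads were aligned and counted, and on which miRBase release, is not given in the sources used here. CPM by the authors divide by totals over all rows (7330605, 8393478 and 8743314), in which miRNAs with several hairpins count more than once. The log2 values equal log2(CPM + 0.1) over the retained rows.

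For each mature miRNA the fullest row was used, and CPM were computed from the resulting totals of 5546771, 6251664 and 6708654. Counting intervals are exact Clopper-Pearson 95% intervals and cover counting error only. miRNAs reaching 10 counts in any library were tested with edgeR 4.0.16 (TMM, quasi-likelihood, R 4.3.3), with Benjamini-Hochberg adjustment over all 367. SEs follow from the fold change and its F value, with 1 residual degree of freedom and an infinite number of prior ones estimated from all miRNAs, so that 95% intervals of fold changes use the normal quantile. DESeq2 1.42.0 and other scalings and filters were alternatives. On data simulated for this comparison over 367 miRNAs, 87.9% of 2-fold and 71.7% of 1.5-fold changes were recovered at the fitted spread, which holds none between preparations.

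The members, the partner list, the marker lists and the tests were chosen with earlier results of these data known. All members are named, by rule, with the partners miR-99a, miR-99b, miR-100, miR-125a and miR-125b. miR-122, known from hepatocytes, had 6, 6 and 1 counts. The epithelial and striated muscle lists held at most 0.0032% and 0.0882% of a library. In them 1 of 3 and 2 of 4 tested miRNAs were higher, beside 17.7% of all tested.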

Additional observations from a re-analysis of the deposited data

How the results depend on the processing

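Entering every hairpin row of a miRNA in the sum raised the family share from 3.16% to 3.45%, lowered the share of let-7i within the family from 32.5% to 22.6% and raised the ratio of let-7a-5p to let-7a-3p from 157 to 239. In that sum let-7f (28.2%) and let-7a-5p (24.4%) stood above let-7i, since near-identical rows are added 2 or 3 times. With 1 library left out, the family share lay between 2.99% and 3.21%, the let-7i share between 32.0% and 32.9%, and the arm ratio between 138 and 163. The number of members that passed was 6 with TMM and 1 with library totals, and between 4 and 5 with DESeq2, DESeq2 size factors, no count filter, only miRNAs of at least 100 CPM, summed rows, or miR-375 removed (chosen after seeing the data). With every row fitted separately, 9 of 14 rows passed. DESeq2 called 84 of 367 miRNAs, against 139 in edgeR. The sign turned for let-7c (-0.021), let-7b (-0.044) and let-7a-3p (-0.11) with library totals, and for let-7b (-0.011) among miRNAs of at least 100 CPM. It also turned for let-7a-3p (-0.041) without technical replicate 1, and for let-7a-3p (-0.060) and let-7b (-0.012) in the deposited log2 values. None of these members had passed. No test was possible with a library left out, because the other 2 leave no residual degree of freedom. No paired analysis was possible because the labels pair no technical library with the biological library. let-7a-3p, at 122 to 170 counts, is limited by depth, and the other members by the lack of a second library of the second preparation.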

Other observations

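The RefSeq table places 3 further miRNA genes within 50 kb of let-7 hairpins, which were looked at after their values were seen. miR-135a, encoded in part near let-7g, had 512 and 503 CPM in the technical pair and 302 CPM in the biological library, and fell by 0.57 ± 0.10 on the log2 scale (SE, edgeR adjusted p = 6.4e-07, and -0.75 with library totals). let-7g itself did not pass, and miR-135a has a second hairpin elsewhere with nearly equal counts, so its reads cannot be assigned to the copy near let-7g. miR-2443, near let-7a-3 and let-7b, had 14, 16 and 16 counts. miR-3596, annotated in the same place, had 0 counts in every library, which allows up to 3 counts, or 0.447 to 0.541 CPM.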
